A study of Caenorhabditis elegans with 2 samples.

Results

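The 336 genes annotated as tRNA on the 5 autosomes of the nematode Caenorhabditis elegans were examined for occupancy by ATTF-6, a DNA-binding protein with AT-hook motifs. They are part of 612 annotated tRNA genes, and the other 276 lie on X. Each gene was represented by a window of 500 bp to either side of its annotated start, and it was called bound where that window held the summit of a region in the joint conservative peak list. The rule that defines the 336 genes uses no measured value. By that rule 126 of the 336 genes were bound, or 37.5%. The data came from chromatin immunoprecipitation with sequencing (ChIP-seq) of whole young adults aged 64 hours, from a strain whose attf-6 gene had been tagged by CRISPR insertion with TY1, EGFP and 3xFLAG, with an antibody against GFP. The worms had been synchronised by bleaching and starvation at the first larval stage, and chromatin had been sonicated to between 200 and 800 bp. The 2 samples are biological replicates 1 and 2 of this 1 group. There is no wild type, untagged or input library among the data analysed, and because whole worms were used, occupancy in few cells and weak occupancy in many cells cannot be told apart. The design gives no comparison between conditions, so no p-value is printed, and for main counts and leading genes the values of each replicate are given beside the joint ones. Replicate counts come from the replicates' own thresholded lists, and replicate signals from their ranked lists.

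Transfer RNAs carry amino acids to the ribosome, and their genes are transcribed by RNA polymerase III from promoters that lie inside the gene. In this gene class the factor TFIIIC binds the internal A and B boxes, TFIIIB and the polymerase are recruited at the start, and transcription ends in a run of T on the coding strand. An isotype is the group of tRNAs that carry the same amino acid, and the anticodon is the base triplet that reads the codon. Many tRNA genes of the worm exist in identical copies, so copies of the same internal promoter stand in different chromosomal surroundings. AT-hooks are short protein segments that contact the minor groove of A+T-rich DNA.

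The tRNA-Pro genes with anticodon TGG are shown first because they include both the autosomal tRNA gene with the highest signal and copies without a joint region. In this family 24 copies in the genome have the same gene sequence, and 11 of them are autosomal. Of those 11, 4 copies are printed here because their signals span the whole range. The sequences are from the RefSeq genome WBcel235 and read 5′ to 3′ on the gene's strand, with the gene in capitals, the 60 bp before it and the 30 bp past it in lower case.
F02H6.t1, chrIV:14225042-14225203, plus strand: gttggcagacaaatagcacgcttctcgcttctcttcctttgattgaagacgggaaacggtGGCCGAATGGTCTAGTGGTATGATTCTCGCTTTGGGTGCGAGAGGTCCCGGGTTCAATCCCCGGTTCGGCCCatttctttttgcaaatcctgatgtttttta
T22F3.t1, chrV:3582260-3582421, plus strand: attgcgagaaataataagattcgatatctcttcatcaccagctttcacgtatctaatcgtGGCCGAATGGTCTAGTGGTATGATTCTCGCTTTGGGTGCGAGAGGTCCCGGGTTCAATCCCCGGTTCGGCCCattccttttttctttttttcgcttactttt
R11G10.t1, chrV:13509633-13509794, plus strand: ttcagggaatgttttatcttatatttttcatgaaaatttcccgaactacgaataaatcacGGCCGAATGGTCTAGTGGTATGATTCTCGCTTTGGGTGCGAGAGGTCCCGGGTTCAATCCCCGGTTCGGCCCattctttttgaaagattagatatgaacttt
Y71H2AM.t1, chrIII:2711651-2711812, plus strand: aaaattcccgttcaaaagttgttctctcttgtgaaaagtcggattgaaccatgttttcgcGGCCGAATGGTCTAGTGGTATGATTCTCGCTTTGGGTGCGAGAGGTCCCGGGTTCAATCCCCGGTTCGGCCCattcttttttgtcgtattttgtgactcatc
The copy F02H6.t1 had the highest signal of all autosomal tRNA genes, 1006 in the joint conservative list, with 602 in replicate 1 and 404 in replicate 2. T22F3.t1 was bound at 55.1, among the 5 lowest bound genes, through a summit 147 bp before its start that lies nearer to a neighbouring tRNA-Pro gene, T22F3.t4. R11G10.t1 had no region in either replicate's ranked list or the joint one, and Y71H2AM.t1 had only a ranked region of 16.5 in replicate 2. The A+T content of the 200 bp before the start was 64.5% at F02H6.t1, 56.5% at T22F3.t1, 69.0% at R11G10.t1 and 71.5% at Y71H2AM.t1. Over all 11 copies it ranged from 51% to 71.5%, and the unbound copies ZK970.t1 and ZK970.t2 had 54% and 53%.

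A second set of sequences is printed because close relatives among them differed in their counts of bound copies, with the anticodon in capitals.
Gln CTG gene, Y4C6B.t1, chrIV:5334712-5334783, plus strand: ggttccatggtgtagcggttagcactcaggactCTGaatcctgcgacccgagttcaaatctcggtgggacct
Gln TTG gene, C13B4.t1, chrII:14474842-14474913, minus strand: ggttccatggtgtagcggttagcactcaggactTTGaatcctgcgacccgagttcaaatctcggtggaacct
Thr AGT gene, C16C8.t2, chrII:3439219-3439290, minus strand: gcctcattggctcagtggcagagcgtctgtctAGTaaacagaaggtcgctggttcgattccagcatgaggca
The 2 Gln sequences differ at 2 of 72 positions, C34T and G68A, counted from 1 at the 5′ end of the gene and with the CTG gene first. All 3 autosomal copies of the CTG sequence were bound, against 1 of 6 of the TTG sequence, and on X the counts were 2 of 2 and 3 of 9. The bound TTG copy, F08G5.t2, and the CTG copy F08G5.t3 share a single summit of 72.1, which lies 6 bp past the start of the TTG copy and 301 bp before that of the CTG copy. On X both bound CTG copies also share their summits with bound TTG copies, and there the summits lie 48 and 43 bp past the starts of the CTG genes H35N09.t2 and H08J11.t1. The Thr sequence, shared by 15 tRNA-Thr genes with anticodon AGT, holds exact A and B boxes, and 6 of its 8 autosomal copies were bound.

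The bound share of tRNA genes was well above that of the genome at large. A conservative summit was held by 2.19% of autosomal tiles as wide as a window and by 3.79% of the windows around autosomal protein-coding gene starts, against 37.5% of the tRNA windows. In the list made from replicate 1 alone 90 genes held a summit, with 1.28% of tiles, and in that of replicate 2 alone 71 genes did, with 1.19% of tiles. On X 115 of 276 tRNA genes, or 41.7%, were bound, although 0.746% of X tiles held a summit. The 126 bound autosomal genes rested on 115 summits, since 28 genes shared a summit with a neighbour and 3 had more than 1. With gene starts within 1000 bp of each other counted as 1 locus, 105 of 282 loci were bound.

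Occupancy of the tRNA genes differed most by position on chromosome IV. The right region of IV, from 13500001 to 17250000 (3.75 Mb), is rich in piRNA genes, whose small RNA products act with Argonaute proteins of the germline, and it holds 11525 of them. All 32 tRNA genes there were bound in the joint list, in replicate 1's own list and in replicate 2's own list. Summits were dense in this region in general, with 18.7% of its tiles holding one. On the rest of the autosomes 94 of 304 tRNA genes were bound, or 30.9%, against 1.41% of tiles and 3.33% of protein-coding start windows there. Replicate 1 alone marked 58 of these 304 genes and replicate 2 alone 39.

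The signal differed in the same place. The signal is the authors' value for a region, whose scale the sources do not state. Levels of different genes are compared only within a list, and values of both replicates are set side by side without a common scale. In the right region it ran from 174 to 1006 with a median of 457, and at the bound genes elsewhere on the autosomes from 18.7 to 307 with a median of 86.4. Only 6 bound genes outside exceeded the lowest gene inside, Y51H4A.t2, a tRNA-Ser gene at 174. The 25 bound genes with the highest signals all lay in the right region. In the ranked lists of the replicates the median was 252 in replicate 1 and 205 in replicate 2 for the right region, and 47.7 and 39.2 for bound genes elsewhere. The X chromosome resembled the latter, with a median of 78.4 and a range of 49.5 to 181.

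**Figure D1:**
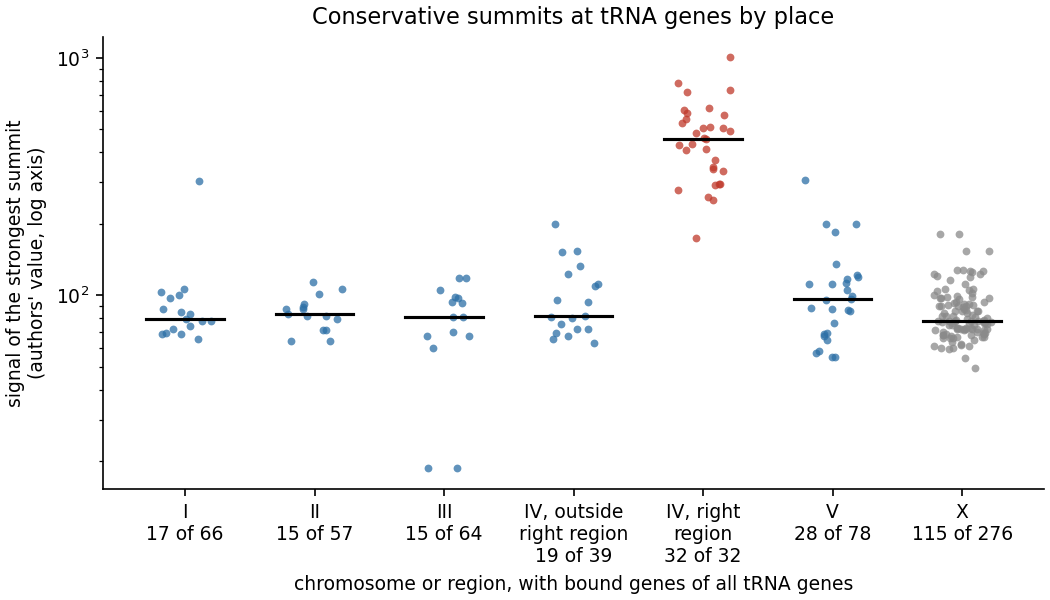
Signal of the strongest conservative summit in the window of each bound tRNA gene (points, log axis) by chromosome or region, with the median as a line and the number of bound genes of all tRNA genes below each column. The 32 genes of the right region of IV lie between 174 and 1006, and the bound genes of every other column have medians from 78.4 to 96.4.

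Within the right region the median of the tRNA summits was above that of the other summits. It was 443 over 32 summits, against 77.4 over the 766 other conservative summits of the region, although the highest of these others reached 2136. Elsewhere on the autosomes the 83 tRNA summits had a median of 87.4 and the 1116 others 82.5, and on X the medians were 78.1 and 73.4. Among the 100 strongest conservative summits of the list, 22 lay at tRNA genes of the right region, 47 elsewhere in that region and 0 at tRNA genes outside it. In each of the 32 right-region genes the strongest summit was nearer to the tRNA start than to any piRNA start. Of these genes 16 had a piRNA start in the window and 16 had none. Signals ran from 174 to 1006 with a piRNA start and from 252 to 720 without one. The medians of both kinds of gene were 271 and 212 in replicate 1 and 213 and 196 in replicate 2.

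The step lay between adjacent tRNA genes. K08E7.t1, a tRNA-Lys gene at position 12594740, is the last tRNA gene of IV before the region and had a signal of 95.7, with 52.6 in replicate 1 and 40.7 in replicate 2. B0513.t1, a tRNA-His gene at 13870265, is the first inside and had 336, with 210 and 122. No tRNA gene lies between them, so the tRNA genes do not place the step more closely.

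The strongest genes carried many isotypes. After F02H6.t1 (Pro) came Y73F8A.t1 (Val) at 786, Y7A9D.t3 (Val) at 732, Y7A9D.t2 (Ala) at 720, F13G11.t1 (Arg) at 617 and Y37A1B.t1 (Ala) at 606. The next were Y105C5A.t2 (Ala) at 584, Y105C5A.t1 (Lys) at 576, Y73F8A.t3 (Ser) at 553, Y105C5B.t4 (Asp) at 534, Y57G11B.t1 (Gly) at 513 and the pair Y105C5B.t2 and Y105C5B.t3 (Glu), which share a summit of 507. Replicate 1 gave 460 and replicate 2 gave 321 at Y73F8A.t1, and 444 and 288 at Y7A9D.t3. At Y57G11B.t1 they gave 262 and 242. The value from the replicate 1 list was the higher of the pair in 31 of the 32 right-region genes. Among autosomal genes in both ranked lists it was also higher in 66 of 93 bound genes outside the region and 84 of 117 unbound genes.

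Genes with identical sequence gave the closest comparison between places. Of the tRNA gene sequences of the autosomes, 13 have copies both inside the right region and outside it, 26 genes inside and 81 outside. All 26 inside were bound, against 31 of the 81 outside, or 38.3%. In 13 of 13 sequences the lowest copy inside exceeded the highest ranked copy outside, in the joint ranked list and in the ranked list of each replicate. For tRNA-Gly with anticodon TCC, the largest family with 29 copies, the 5 inside had signals of 252 to 513 and the 13 outside 33.7 to 81.2. In replicate 1 the ranges were 133 to 262 and 21.0 to 51.4, and in replicate 2 they were 106 to 242 and 16.8 to 39.9. For tRNA-Lys with anticodon CTT, 1 copy inside had 576 and the 14 outside reached at most 304.

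**Figure D2:**
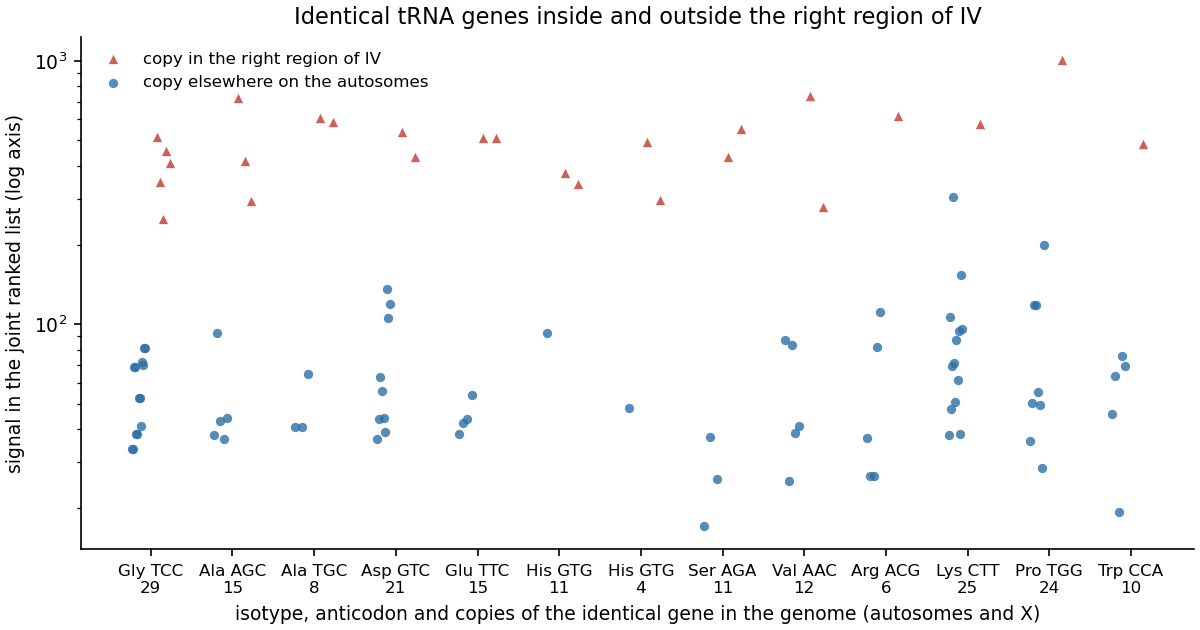
Signal in the joint ranked list (log axis) of autosomal tRNA genes with the same gene sequence, 13 sequences with copies inside (triangles) and outside (circles) the right region of IV, with the isotype, the anticodon and the number of copies below. Every triangle lies above every circle of its column, as in tRNA-Pro with 1006 inside and at most 200.3 outside, and copies with no ranked region are not drawn.

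The tRNA-Trp genes include loci known as amber suppressors in mutant form, and they show the same order. The copy sup-24, in the right region, had a signal of 485, with 294 in replicate 1 and 205 in replicate 2. Its identical copies rtw-6 and Y4C6B.t2, on IV outside the right region, were bound at 69.3 and 75.5. Neither replicate's own list marked rtw-6, and only that of replicate 2 marked Y4C6B.t2. The identical copies sup-5 on III and sup-29 on IV were not bound, with ranked signals of 63.8 and 19.4. A further copy, Y95B8A.t1, was not bound at 45.7, and F49C5.t1, a tRNA-Trp gene of another sequence, was not bound at 33.9.

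The sources used here do not say how reads of identical copies were placed. A read that lies wholly inside a gene of 72 bp could come from any of its copies. The fragments of 200 to 800 bp reach past such a gene, but whether the flanking sequence of the copies is unique was not examined. The part of read placement in the values of single copies was not tested. Of 86 single-copy autosomal genes 21 were bound, or 24.4%, and of 250 genes with at least 2 copies 105, or 42.0%. Without the right region the counts were 18 of 83 and 76 of 221, or 21.7% and 34.4%. On X the shares were nearer, 22 of 57 (38.6%) and 93 of 219 (42.5%). Outside the right region the autosomal share did not rise steadily with the number of copies. It was 24.3% for 2 to 4 copies, 40.5% for 5 to 9, 28.6% for 10 to 14 and 38% for 15 or more. The single-copy genes B0513.t1 for tRNA-His and Y51H4A.t4 for tRNA-Gly, both in the right region, had signals of 336 and 460. The third there, Y40H7A.t1 for tRNA-His, had 295 through a summit 375 bp from its start and 6 bp from that of Y40H7A.t2, which has 4 copies.

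Families of at least 5 identical copies held 208 autosomal genes in 29 sequences. Outside the right region 25 of the 29 had both bound and unbound copies, 1 had bound copies only, and 3 had none bound. The first of these exceptions is the Gln CTG sequence, and the others are Glu TTC with 0 of 5, Ser GCT with 0 of 3 and the His GTG sequence of 11 copies with 0 of 1. Even in large families the signals of unbound and bound copies were spread. Of 13 autosomal copies of the tRNA-Asn sequence, 12 had ranked signals of 25.8 to 112 and 1 had no ranked region. The only bound copies of that family were F57G8.t4 and F57G8.t1, a pair that shares a summit of 112, with 58.8 in replicate 1 and 42.9 in replicate 2. A like pair next to it, F57G8.t3 and F57G8.t2, had 54.1, with 38.2 and 21.1, and was not bound. For tRNA-Ile with anticodon AAT 3 of 9 copies were bound, and 4 of the 9 had no joint ranked region. For tRNA-Leu with anticodon AAG 1 of 7 copies was bound. It is F49C5.t3, called through a summit 226 bp past its start that lies nearer to the bound tRNA-Lys gene F49C5.t4.

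The chromosomes differed less in their other parts. On I 17 of 66 genes were bound, on II 15 of 57, on III 15 of 64 and on V 28 of 78. On the rest of IV 19 of 39 were bound, or 48.7%. Replicate 2's own list marked 1 of the 64 genes of III, against 9 in that of replicate 1, so the count on III rests on the joint list. The central parts of the chromosomes had 28 of 110 bound, or 25.5%, and the outer parts 66 of 194, or 34.0%. In replicate 1 these were 18 and 40 genes and in replicate 2 they were 11 and 28. The difference lay on I, with 17.9% in the central part and 31.6% in the outer parts, and on V, with 25% and 40.7%. On II the shares were 27.8% and 25.6%, on III 23.3% and 23.5%, and on the rest of IV 50% and 48.3%.

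Of the 6 bound genes outside the right region with signals above 174, 3 lay within 1000 bp of the start of an snRNA or snoRNA gene. C16D9.t4, a tRNA-Tyr gene on V, had 307, with 175 in replicate 1 and 110 in replicate 2, but its summit lay 441 bp past its start and 39 bp from the start of a snoRNA gene, C16D9.10. M01E5.t1, a tRNA-Lys gene on I, had 304, with 186 and 108, and its summit lay 99 bp before its start and 33 bp from the start of sls-2.9, which encodes a spliced leader RNA of the SL2 kind. C53D6.t1, a tRNA-Thr gene on IV, had 199, and its summit lay 413 bp before its start and 134 bp from the snRNA gene C53D6.12. The other 3 had no such gene near them and were T23F1.t1 (Lys) and T23F1.t2 (Pro) on V, which share a summit of 200.3, and T03E6.t1 (Gln) on V with 186. The genes F10C1.t1 with 114 and W09D6.t1 with 119 were the strongest of II and III. Without the 7 genes that start within 1000 bp of an snRNA, snoRNA or rRNA gene, 121 of 329 were bound.

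Most summits sat on the tRNA gene or close to its start. Over 129 pairs of a gene and a conservative summit in its window, the median summit lay 13 bp past the start, with quartiles of 13 bp before and 37 bp past it. In 105 pairs, or 81.4%, the summit lay within 100 bp of the start, and in 73, or 56.6%, inside the gene. Replicate 1's own list gave 85.6% within 100 bp and replicate 2's own list 84.7%. At protein-coding starts 24.3% of 715 pairs lay within 100 bp, and the median summit lay 151 bp before the start. The right region had 30 of 34 pairs within 100 bp and the rest of the autosomes 75 of 95. The X genes had 93 of 122 pairs within 100 bp, or 76.2%. Summits inside the gene made up 73.5% of pairs in the right region, 50.5% elsewhere on the autosomes and 54.9% on X.

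**Figure D3:**
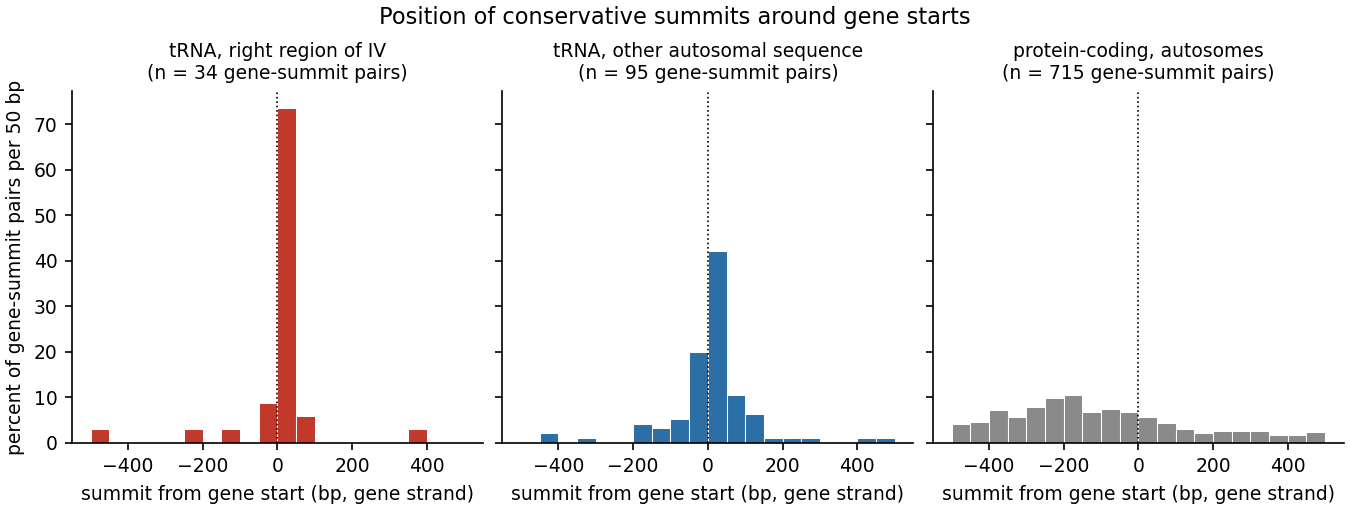
Share of gene and summit pairs in bins of 50 bp by the distance of the conservative summit from the gene start, with positive values in the direction of transcription, for tRNA genes of the right region of IV, tRNA genes elsewhere on the autosomes and autosomal protein-coding genes. The tRNA pairs gather just past the start, with 88.2% and 78.9% within 100 bp, and the protein-coding pairs spread mostly before it, with 24.3% within 100 bp.

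Few genes had their nearest summit close to the window limit. The bound genes whose nearest summit lay closest to the limit were F42A10.t1 at 476 bp, C16D9.t4 at 441 bp and T04D3.t4 at 420 bp before its start. The unbound genes closest outside it were C17D12.t3 at 625 bp, C17D12.t1 at 632 bp before its start and C06B8.t2 at 648 bp before its start. The lowest bound genes by signal were F42A10.t1 and F42A10.t2 at 18.7, then T22F3.t1 and T22F3.t4 at 55.1 and T19C4.t1 at 57.2. The windows of the F42A10 pair also held a stronger ranked region of 37.2 that did not pass the deposited threshold.

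Unbound tRNA genes were not empty of signal. The joint ranked list, which holds regions far below the threshold, had a region in 52.4% of autosomal tiles and in 166 of the 210 unbound tRNA windows. The other 44 had none. The signals of these 166 had a median of 38.4 and quartiles of 30.2 and 49.3, against a median of 24.4 and an upper quartile of 33.3 over tiles with a region. At 114 of the 166 genes the signal exceeded that upper quartile. Their strongest ranked summit lay within 100 bp of the start in 106 of 166, or 63.9%, against 22.8% at unbound protein-coding starts. In the replicates this share was 66.7% of 156 and 61.4% of 140.

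The replicates shared the high end and parted near the threshold. Of the 126 bound genes 59 were marked by both replicates' own lists, 25 by that of replicate 1 alone, 9 by that of replicate 2 alone and 33 by neither. Of the 210 unbound genes, 204 were marked by neither list, 3 by replicate 1 alone and 3 by both. Among those marked by both was F44A2.t1 (Ala), with 50.6 in replicate 1 and 47.0 in replicate 2. The joint ranked list held only a region of 4.92 in its window. The unbound genes had medians of 24.8 and 19.3 in the ranked lists. The unbound genes with the highest joint ranked signals were W09G10.t1 (His) at 92.3, Y54G2A.t2 (Asp) at 79.8, Y95D11A.t1 (Phe) at 75.5, F14F7.t1 (Thr) at 64.8 and sup-5. In W09G10.t1 replicate 1 gave 66.2 and replicate 2 gave 23.8, and in Y54G2A.t2 they gave 60.6 and 16.6.

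**Figure D4:**
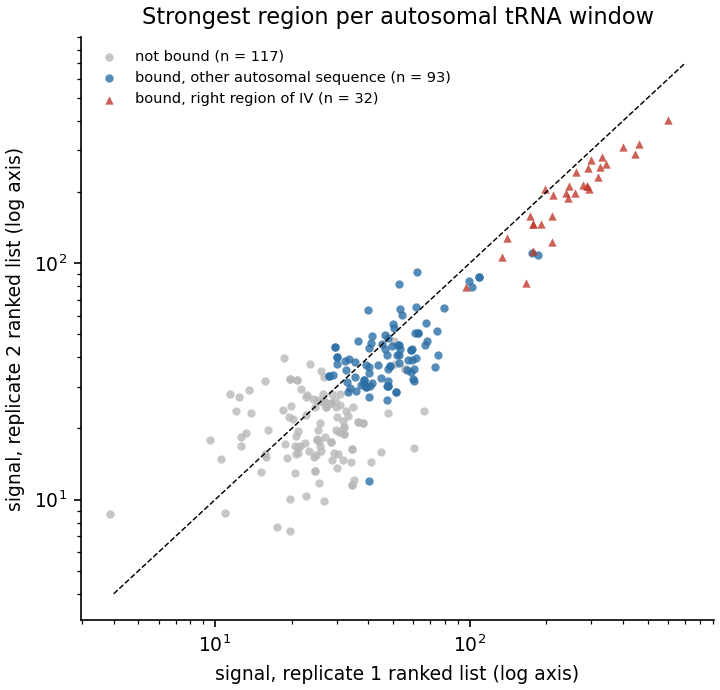
Signal of the strongest ranked region in each autosomal tRNA window in replicate 1 (x, log axis) and replicate 2 (y, log axis), for 32 bound genes of the right region of IV, 93 bound genes elsewhere and 117 unbound genes present in both lists, with equality dashed. Right-region genes lie at the upper end and mostly below the dashed line, with replicate 1 higher in 31 of 32. Replicate 1 was also higher in 66 of the 93 bound genes elsewhere and 84 of the 117 unbound genes.

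By isotype, each of the 20 with at least 5 autosomal genes had at least 1 bound gene. The highest share was that of tRNA-His, with 6 of 11. All 6 bound genes lay in the right region, with signals of 295 to 493. Of the 5 elsewhere on the autosomes 0 were bound, with ranked signals of up to 92.3 and 1 gene without a region. The gene with 92.3, W09G10.t1, was marked by replicate 1's own list and by the other thresholded list of both replicates. On X 5 of 9 His genes were bound, and each replicate's own list marked 0 of them. The lowest share was that of tRNA-Asn, with 2 of 14, where replicate 1 marked 2 and replicate 2 marked 0, followed by tRNA-Cys with 1 of 6. This order did not hold on X, where 4 of 6 Asn genes and 4 of 7 Cys genes were bound. Outside the right region tRNA-Thr, which has no gene inside it, was highest with 10 of 20, of which each replicate's own list marked 5, then tRNA-Lys with 13 of 27 and tRNA-Asp with 6 of 13. Of the bound Thr genes, C16C8.t2 and W10G11.t2 share their summits with the bound Lys genes C16C8.t1 and W10G11.t1. At the Thr genes T04D3.t4 and C53D6.t1 the summits lie 420 and 413 bp before the start. The tRNA-Ser genes had 3 of 17 and the tRNA-Ala genes 3 of 16 outside the region. On X the bound counts were 6 of 14 for Thr, 9 of 18 for Lys and 2 of 12 for Asp. For Ser and Ala they were 7 of 18 and 10 of 13 there. The single gene for selenocysteine, K11H12.t1, was bound at 81.3, with 32.3 in replicate 1 and 38.6 in replicate 2, and neither own list marked it.

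**Figure D5:**
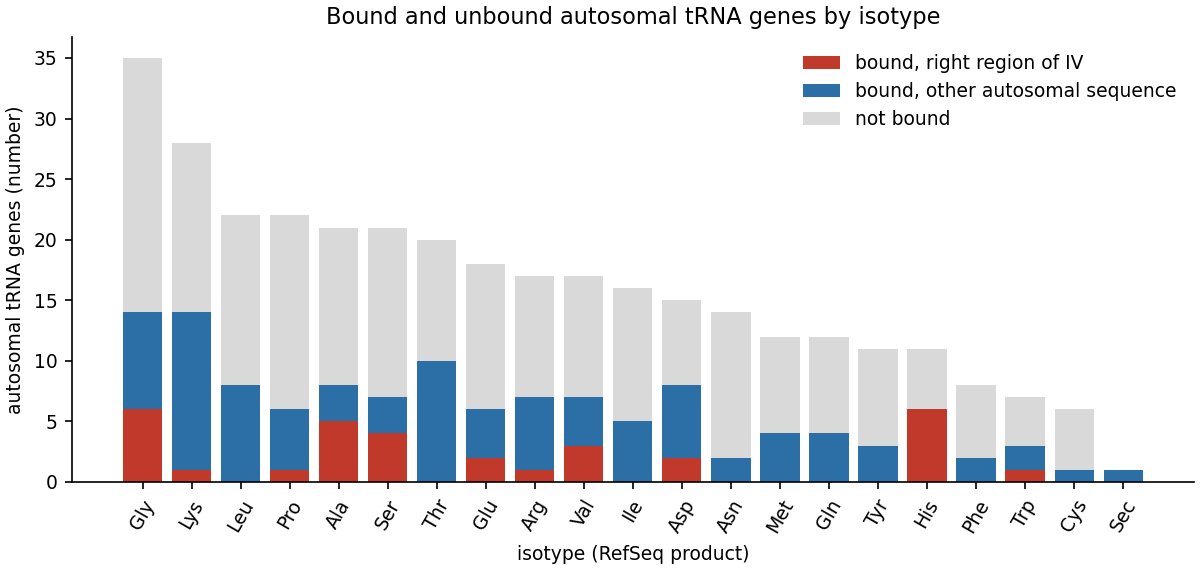
Number of autosomal tRNA genes by isotype, stacked as bound in the right region of IV, bound elsewhere and not bound. All 6 bound His genes are in the right region, none of the 20 Thr genes lies there and 10 of them were bound, and 1 of 6 Cys genes and 2 of 14 Asn genes were bound.

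Anticodons within an isotype were also uneven. For Gly, TCC genes were bound in 12 of 20, GCC genes in 2 of 11 and CCC genes in 0 of 3. Of the TCC genes 6 lie in the right region, where no GCC or CCC gene lies, and 6 of the 14 elsewhere were bound. For Thr, TGT genes were bound in 4 of 5, AGT genes in 6 of 10 and CGT genes in 0 of 4, although the 4 CGT genes had a median ranked signal of 60.6. The bound TGT genes include T04D3.t4 and C53D6.t1, with summits 420 and 413 bp before the start. The bound AGT genes include C16C8.t2 and W10G11.t2, which share summits with Lys CTT genes. For Pro, TGG genes were bound in 6 of 16 and the AGG and CGG genes in 0 of 3 each. For Lys, CTT genes were bound in 10 of 17 and TTT genes in 4 of 10. Leu AAG genes were bound in 1 of 9, namely F49C5.t3 with its summit nearer to a Lys gene, and Ser GCT genes in 0 of 4. Replicate 1 marked 9 of the Gly TCC genes and replicate 2 marked 8, but for Thr AGT they marked 2 and 4. On X several orders were the opposite. There Gly GCC genes were bound in 3 of 4 and TCC genes in 9 of 16, Thr CGT genes in 2 of 3 and AGT genes in 2 of 7, and Pro AGG genes in 3 of 3. For Lys on X, TTT genes were bound in 3 of 5 and CTT genes in 6 of 13.

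The surroundings of a gene went with its share outside the right region, and on X the shares lay closer together. Outside the right region, tRNA genes that overlap no protein-coding gene were bound in 45 of 119, or 37.8%. Those inside a protein-coding gene on its strand were bound in 30 of 115 and those on the opposite strand in 19 of 70. Replicate 1 marked 29, 18 and 11 of these genes and replicate 2 marked 26, 10 and 3, and on X the shares were 41.1%, 45.1% and 40%. A protein-coding start within 500 bp went with 28 of 64 bound, or 43.8%, against 66 of 240, or 27.5%, without one. Replicate 1 marked 18 and 40 of them and replicate 2 marked 12 and 27, and on X the shares were 42.3% and 41.6%. With another tRNA start within 1000 bp 30 of 85 were bound and without one 64 of 219, but the order was the opposite in each replicate, with 14 and 44 genes in replicate 1 and 9 and 30 in replicate 2.

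Sequence features were compared by exact letters. The B box was searched as GGTTCGA, any 2 bases, CC, and the A box as TGGC, any 2 bases, AGTGG, on the gene strand of the gene and on both strands of windows and tiles. In tiles the A box occurred in 0.879% and the B box in 1.28%, and in the autosomal tRNA windows in 13.1% and 66.1%. In the genes themselves the exact B box was found in 217 and the exact A box in 35. With the B box 84 of 217 genes were bound and without it 42 of 119, shares of 38.7% and 35.3%. Outside the right region, 16 of 35 genes with the exact A box were bound, or 45.7%, against 29.0% without it, and 0 of the 32 right-region genes held it. Identical copies count as separate genes here. The 35 include the 8 copies of the Thr AGT sequence, 6 of them bound, and 6 copies of a Met sequence, 3 of them bound. On X the order was the opposite, 31.8% with the A box and 42.5% without. A looser A box, chosen after the data were seen, was missing in 14 autosomal genes, of which 3 were bound.

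A run of at least 4 T within 30 bp past the gene end, where RNA polymerase III stops, was present in 332 of the 336 genes. None of the 4 genes without it was bound, namely Y95D11A.t1, ZK39.t1, W09G10.t3 and K09C6.t1, and on X none of 3 was. All 4 are single-copy genes outside the right region, a class of which 21.7% were bound, and on X 41.7% of all tRNA genes were. These genes are too few to set a share. The 200 bp before the start were slightly less A+T-rich at bound than at unbound genes outside the right region, with quartiles of 53.6% and 62.8% against 56.5% and 63.9%. The difference of the medians, bound minus unbound, was -2 percentage points, and it was -0.75 and -0.5 with replicate 1 or replicate 2 alone and -0.5 at an irreproducible discovery rate (IDR) of 0.001 or less. On X the medians were 61.0% and 65.5%, and the autosomes as a whole have 64.5%. Right-region genes had a median of 60.3%.

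Genes of RNA polymerase III transcription and genes for aminoacyl-tRNA synthetases were bound more rarely than the tRNA genes. Of 29 listed genes of RNA polymerase III transcription 19 matched the annotation, and 3 were bound, or 15.8%, against 3.79% of all autosomal protein-coding starts. The 19 include sftb-1, which encodes a splicing factor, and without it 3 of 18 were bound, or 16.7%. The bound genes were rpac-19, a subunit shared by RNA polymerases I and III, at 88.3, and snpc-3.1 and snpc-3.4, of the family of the snRNA-activating complex, at 93.9 and 99.8. The list holds further snpc genes, which were not bound, and outside this family rpac-19 was its only bound gene. The genes brf-1 and tbp-1, for parts of TFIIIB, were not bound and had ranked signals of 19.4 and 28.5. Of 23 listed genes for aminoacyl-tRNA synthetases 21 matched, and 2 were bound, or 9.52%, namely fars-3 for phenylalanine at 87.5 and vars-1 for valine at 82.9. Replicate 1 marked 2 and replicate 2 marked 3 of the transcription genes, and each marked 1 of the synthetase genes.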

How the data were processed

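ATTF-6 ChIP-seq peaks of 2 replicates were taken as deposited by the authors, on ce11 per the deposited notes. Each replicate has a ranked and a thresholded list, and both together have 2 of each, 8 lists in all. The aligner, the peak caller and the depth were not given in the sources used here, and the control experiment named in the labels was not analysed here. The signal of a region is the authors' deposited value. The deposited −log10 values give the irreproducible discovery rate (IDR), whose global form is at most 0.01 in the conservative list.

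Summits were matched to Ensembl release 115 gene starts (python 3.11.15, numpy 2.4.6, pandas 2.3.3, biopython 1.88), and the window matching was tested on simulated data. Names and isotypes came from RefSeq by WormBase identifier, with 336 of 336 matched and 334 with an isotype. Anticodons were read in 310 genes from a loop of 7 bases with at least 4 of 5 paired stem bases. The right region of IV is the rightmost run of neighbouring 250 kb bins with at least 100 piRNA genes. Any other such run on IV was counted as outside it. Copies were counted over the autosomes and X, and families have at least 5.

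Named genes are the 12 with the highest signal, the strongest of each chromosome, the 5 lowest bound, the 5 highest unbound, the 3 nearest on each side of the window limit, the extreme isotypes, the families, and bound genes of the 2 protein lists. Others were chosen after their values were seen. The subject, the named genes and the lists were chosen with earlier results of these data known. Alternatives were each replicate's own list, the other joint list, an IDR of 0.001 or 0.05, windows of 200 and 1000 bp, any overlap, and leaving out the right region or genes near other short RNA genes.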

Additional observations from a re-analysis of the deposited data

Results flagged for a closer look

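Among the unbound autosomal tRNA genes, 1 has a region in the joint ranked list that passes the deposited threshold and is missing from the conservative list. It is Y95D11A.t1, a tRNA-Phe gene whose start is at 10945821 on chromosome I. Its joint signal was 75.5, with 50.9 in replicate 1 and 37.3 in replicate 2. The summit of that joint region lies 345 bp past the start, outside the gene, which is 73 bp long. Y95D11A.t1 is also among the 4 genes with no run of 4 T past the gene end. In all, 133 of 2267 ranked regions past the threshold are missing from the conservative list.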

How the results depend on the processing

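The count of 126 bound genes became 71 to 90 with a single replicate, 81 at an IDR of 0.001 and 159 at an IDR of 0.05, and it lay between 94 and 139 under the other alternatives. Outside the right region of IV the 94 bound genes became 39 to 58 and 49 at an IDR of 0.001, whereas all 32 right-region genes stayed bound with a single replicate, in the other joint list and at that IDR. The median signal of bound genes was 98.2 and became 136 at that IDR, while in the replicates' own lists, which differ in scale and genes, it was 64.3 to 83.7. The median summit position of 13 bp became 14.5 to 18 bp with a single replicate. The difference in bound share between genes with at least 2 copies and single-copy genes outside the right region, 12.7 percentage points, became 8.01 to 9.36 with a single replicate and 8.91 at that IDR. The difference with and without the exact A box, 16.7 points, became 7.50 to 8.10, 19.2 in the other joint list and 7.62 at that IDR. The cause of these shifts was not tested. No paired analysis was possible because the 2 replicates form 1 group. What depth limits could not be assessed, since it is unknown.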
